A study of Mus musculus with 12 samples.

Results

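The 4 Id genes (Id1, Id2, Id3 and Id4), the inhibitory Smad genes Smad6 and Smad7, and the Zfp36 family genes Zfp36l1 and Zfp36l2 were followed across the ears of mice injected with IL-17A, IL-36γ or both. These 8 genes were found by symbol among the 50684 Ensembl genes of the count table, and all 8 were among the 19408 genes with enough counts to be tested. They were chosen by their measured values: Id3 and Zfp36l1 were higher after IL-17A alone but not after both cytokines, and the relatives of these genes were added. Values for IL-17A against PBS, both cytokines against PBS and both cytokines against IL-17A are therefore given as a description. Where calls of members are counted for these comparisons, nothing is read from the counts. The tests are those for IL-36γ, which the choice did not use, although these comparisons share PBS, IL-17A or combination libraries with those that it used. The choice favoured high values in the IL-17A libraries and low values in the PBS and combination libraries. The shared libraries therefore favour a rise in IL-36γ against PBS, and negative values in both against IL-36γ and in IL-36γ against IL-17A.

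Bone morphogenetic proteins (BMPs) and transforming growth factor beta (TGF-β) bind paired receptor kinases, which phosphorylate receptor Smads that enter the nucleus with Smad4. Id genes are classical targets of the BMP branch. Id proteins lack a DNA-binding region and hold basic helix-loop-helix (bHLH) factors away from DNA, and are known for delaying differentiation. Smad6 and Smad7 are induced by the same signal and block it at the receptors. Zfp36l1 and Zfp36l2 encode zinc finger proteins that bind AU-rich elements of mRNAs, many of them encoding cytokines and cell cycle proteins, and direct them to decay.

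Female C57BL/6 mice, 8 weeks old, received intradermal injections into the ear, a model used to ask how IL-17A and IL-36γ act together in psoriasis-like skin. The 4 groups were IL-17A alone, IL-36γ alone, the combination IL-17A + IL-36γ and PBS (the vehicle control), with 1 µg of each cytokine given in a volume of 5 µL. The paper describes treatment on consecutive days, and ears were taken on day 4, at the end of this treatment. Of the 5 mice in each group, 3 were sequenced. No group carried a transgene or deletion, and every group received the injection itself.

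The libraries held 25293468 to 34759293 counts. All 10 keratinocyte markers, including Krt5 and Krt14, were counted in every library, as were fibroblast, endothelial and macrophage markers. The ear samples also held muscle and cartilage: the summed level of 10 skeletal muscle markers ran from 265 to 3490 CPM (counts scaled to a common library size, with TMM) and was 441 CPM in PBS replicate 1 against 3040 CPM or more in the other PBS libraries. In such bulk tissue, fewer cells of a type and less RNA per cell cannot be told apart. Fold changes are on the log2 scale with the standard error (SE) of the fit, and a gene passed at an adjusted p below 0.05 in edgeR's quasi-likelihood test over all genes tested.

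The sequence before the transcription start was looked at because the Id genes and inhibitory Smads are known targets of Smads, with Zfp36l1 beside them. RefSeq windows of 250 bases were at hand for Id2, Id3, Id4, Smad6 and Zfp36l1, on build GRCm38.p6. Positions are counted back from the start, -1 being the base before it. The motifs were searched on both strands: GGCGCC and GTCTG (letters of Smad sites), CANNTG (the E-box bound by bHLH factors), TGACG (a cyclic AMP element), GGGCGG (an Sp1 site), and the Egr1 consensus, the kappa B consensus and the CArG box.

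For the Id genes, stretches of 30 bases are shown around the matches to the Smad letters only, which are in capitals; matches to the other motifs are not marked. Id3 held GTCTG or its complement at -167 to -163 and at -68 to -64. The former overlapped a TGACG match at -170 to -166, which is not marked. Id2 held GGCGCC at -231 to -226, and Id4 held it at -148 to -143. The Id4 window ends at base 48261115, before the GENCODE start of Id4 at 48261228, so its positions refer to the RefSeq start. The bases checked after that RefSeq start were not found in a GENCODE transcript of Id4. Both Id3 stretches lie in the first exon of a longer GENCODE transcript of Id3, the Id2 stretch lies in an intron of a longer Id2 transcript, and the Id4 stretch lies before Id4, inside the antisense gene A330033J07Rik.
Id3, chr4:136143643-136143672, + strand: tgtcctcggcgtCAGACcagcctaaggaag
Id3, chr4:136143742-136143771, + strand: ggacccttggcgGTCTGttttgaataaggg
Id2, chr12:25096306-25096335, - strand: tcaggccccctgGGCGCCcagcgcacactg
Id4, chr13:48260956-48260985, + strand: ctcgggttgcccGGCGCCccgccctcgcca

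The whole windows of Smad6 and Zfp36l1 are shown as the contrast: the former held GGGCGG 4 times (capitals, the last on the other strand), and the latter none of the motifs searched.
Smad6, chr9:64022060-64022309, - strand: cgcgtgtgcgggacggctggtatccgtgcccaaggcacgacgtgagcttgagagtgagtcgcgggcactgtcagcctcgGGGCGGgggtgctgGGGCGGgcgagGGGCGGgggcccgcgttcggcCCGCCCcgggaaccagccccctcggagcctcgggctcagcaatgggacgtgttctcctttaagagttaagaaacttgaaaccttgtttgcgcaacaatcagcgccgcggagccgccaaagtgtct
Zfp36l1, chr12:80113014-80113263, - strand: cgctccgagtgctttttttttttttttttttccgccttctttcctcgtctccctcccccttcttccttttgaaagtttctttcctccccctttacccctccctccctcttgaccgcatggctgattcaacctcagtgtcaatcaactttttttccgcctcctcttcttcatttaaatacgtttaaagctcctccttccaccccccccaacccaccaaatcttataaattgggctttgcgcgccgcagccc

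Of 32851 mouse windows of this length, 9.59% held GGCGCC, 42.2% GTCTG, 66.2% CANNTG, 17.8% TGACG and 32.7% GGGCGG. The Egr1 consensus was in 2.57%, the kappa B consensus in 3.9% and the CArG box in 1.47% of windows, and in none of the 5 member windows. GGGCGG was found 1 time in Id2, 2 times in Id3 and 5 times in Id4, CANNTG 1 time in Id2 and TGACG 1 time in Id4. The windows also differed in base composition: 75.6% of bases were G or C in Id4, 66.8% in Smad6, 62.8% in Id2 and Id3, and 48.4% in Zfp36l1, beside a median of 52.4% over all windows. These matches are letters in a window and carry no measurement of binding.

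Id1 (GRCm38 chr2:152736251-152737410) had the widest range of the Id genes. Its level was 72.2, 48.3 and 50.9 CPM in the 3 PBS libraries, 107, 142 and 118 CPM after IL-17A, 100, 101 and 80.9 CPM after IL-36γ, and 68.0, 76.1 and 85.4 CPM after both. Each library with a single cytokine lay above the PBS libraries, while a combination library lay below PBS replicate 1. The log2 fold change against PBS was 1.10 (SE 0.16) after IL-17A and 0.42 (SE 0.16) after both.

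Id3 (chr4:136143497-136145755) stood at 43.6, 40.7 and 42.9 CPM in PBS, 60.7, 76.2 and 69.2 CPM after IL-17A, 56.2, 50.9 and 56.9 CPM after IL-36γ, and 34.3, 39.7 and 46.8 CPM after both. The 3 IL-17A libraries were the highest of all 12, the 3 IL-36γ libraries came next, and the combination libraries overlapped PBS. Against PBS the log2 fold change was 0.70 (SE 0.11) after IL-17A and -0.07 (SE 0.11) after both, the pattern by which this gene was chosen.

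Id2 (chr12:25093799-25097140), which is expressed in skin and in lymphoid cells, moved over a smaller range. It was 50.5, 41.3 and 43.3 CPM in PBS, 59.8, 58.3 and 61.5 CPM after IL-17A, 49.2, 50 and 48.8 CPM after IL-36γ, and 38.5, 50.8 and 40.2 CPM after both. Only the IL-17A libraries were apart from PBS, with a log2 fold change of 0.41 (SE 0.10), and the value after both was -0.06 (SE 0.10).

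Id4 (chr13:48261228-48266026) did not share the higher level after IL-17A. It was 33.4, 29.5 and 28.6 CPM in PBS, 24.5, 33.6 and 34.0 CPM after IL-17A, 29.2, 24.3 and 23.5 CPM after IL-36γ, and 18.7, 18.6 and 21.3 CPM after both. The 3 combination libraries were the lowest of all 12. The log2 fold change against PBS was 0.01 (SE 0.13) after IL-17A and -0.64 (SE 0.13) after both. An antisense gene, A330033J07Rik, overlaps exons of Id4 and held 14 to 40 counts per library.

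Per kilobase of exon, Id1 was the highest of the 4 Id genes in every group and Id4 the lowest. Id1 stood at 49.2 ± 11.3 CPM per kilobase after PBS (SD, n = 3), Id3 at 23.7 ± 0.85, Id2 at 18.5 ± 1.99 and Id4 at 7.92 ± 0.665. Of the summed Id level on this scale, Id4 made up 7.49% to 8.62% in the PBS libraries and 4.06% to 5.22% in the 9 libraries with a cytokine, so these ranges did not overlap. Such shares are tied to one another and include Id3, a gene of the choice. After IL-17A the Id4 level itself was near that of PBS, at 7.98 ± 1.39 CPM per kilobase. The share of Id1 was 46.8% to 53.7% in PBS and 54.6% to 61.9% in the other libraries. After both cytokines the summed Id level was back near that of PBS, at 98.5 to 122 against 88.9 to 116 CPM per kilobase, with the shares of Id1 and Id4 outside the PBS ranges. The shares of Id2 (13.6% to 18.3% against 17.9% to 19.1%) and Id3 (19.5% to 21.4% against 21.0% to 25.8%) overlapped those of PBS.

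Smad6 (chr9:63953076-64022059), which acts mainly on the BMP branch, was among the least expressed members. It was 6.8, 6.8 and 6.3 CPM in PBS, 7.6, 8.6 and 7.6 CPM after IL-17A, 5.4, 6.1 and 6.7 CPM after IL-36γ, and 3.5, 4.2 and 5.3 CPM after both. The combination libraries all lay below every other library. Against PBS the log2 fold change was 0.27 (SE 0.14) after IL-17A and -0.60 (SE 0.15) after both.

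Smad7 (chr18:75367529-75395935), which acts on both branches, was 8.5, 9.6 and 10.3 CPM in PBS, 11.7, 12.0 and 10.5 CPM after IL-17A, 8.8, 8.4 and 10.8 CPM after IL-36γ, and 7.3, 7.8 and 7.6 CPM after both. Like Smad6, it had its 3 lowest libraries in the combination. The log2 fold change against PBS was 0.27 (SE 0.12) after IL-17A and -0.33 (SE 0.12) after both. Per kilobase of exon both inhibitory Smads were near 2 in PBS, at 2.06 ± 0.0866 CPM for Smad6 and 2.1 ± 0.196 CPM for Smad7.

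Zfp36l1 (chr12:80107754-80113013) was nearly level among the IL-17A libraries. It was 60.3, 58.5 and 54.3 CPM in PBS, 89.9, 88.5 and 89.1 CPM after IL-17A, 76, 70 and 79.3 CPM after IL-36γ, and 60.6, 69.9 and 61.9 CPM after both. The IL-17A libraries lay above all others. The log2 fold change against PBS was 0.63 (SE 0.07) after IL-17A and 0.15 (SE 0.07) after both, again values used in the choice. A long non-coding gene on the other strand, Gm26669, overlaps it and held 0 to 2 counts.

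Zfp36l2 (chr17:84183931-84187947) moved like its relative. It was 106, 106 and 89.4 CPM in PBS, 146, 149 and 133 CPM after IL-17A, 137, 121 and 117 CPM after IL-36γ, and 90.9, 114 and 105 CPM after both. The IL-17A and IL-36γ libraries lay above all PBS libraries, and the combination overlapped PBS. The log2 fold change against PBS was 0.50 (SE 0.10) after IL-17A and 0.03 (SE 0.10) after both. Per kilobase, Zfp36l2 stood at 28.4 ± 2.71 CPM in PBS and Zfp36l1 at 19.3 ± 1.03 CPM.

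**Figure D1:**
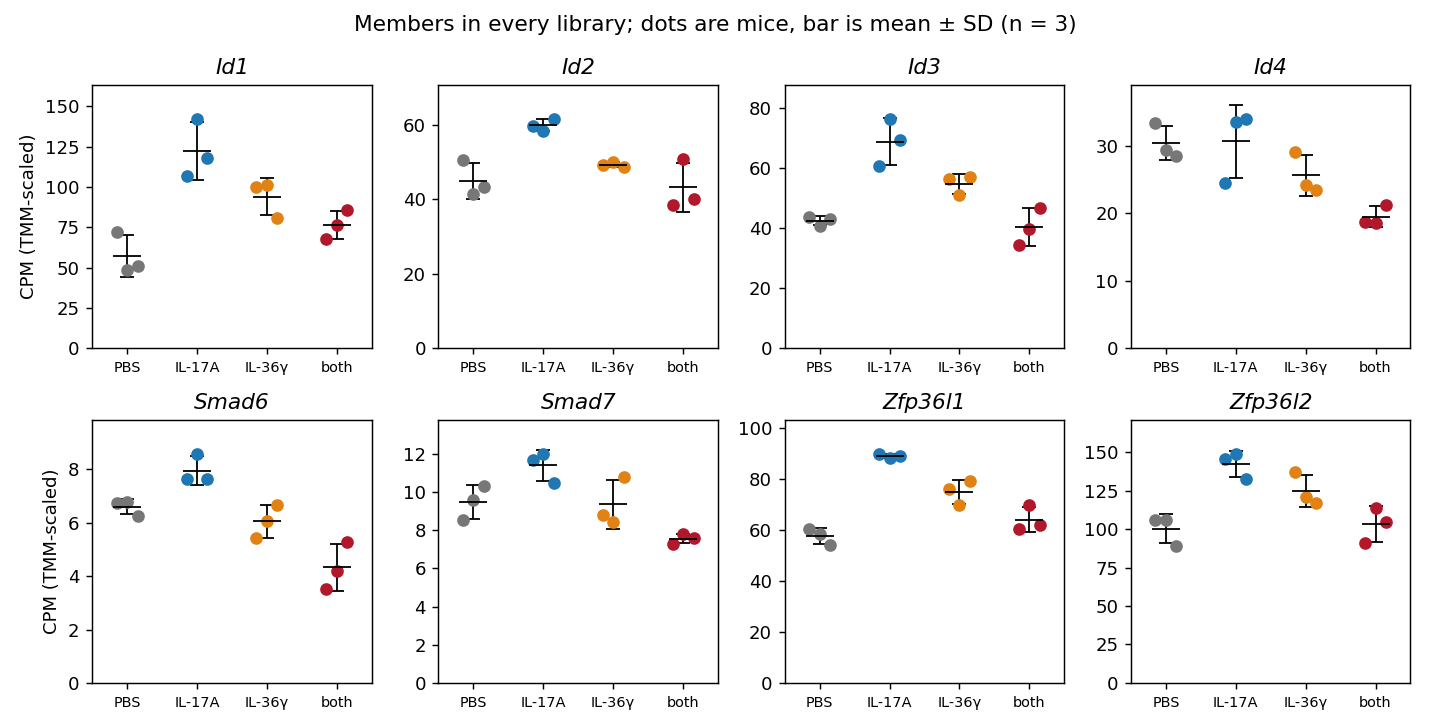
Level of each member in CPM (y axes, linear and from 0) in the 12 libraries by group (x axes); dots are mice, and the horizontal bar with whiskers is the mean ± SD of 3. For Id3 the IL-17A libraries sit between 60.7 and 76.2 CPM and the combination libraries between 34.3 and 46.8 CPM, which overlaps PBS.

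Set side by side, 7 of the 8 members had the 3 IL-17A libraries above every PBS library, as 19.6% of all genes did. By the test, 5 members would be counted as raised by IL-17A and 0 as lowered, beside 7.44% and 3.49% of all genes. After both cytokines, 1 member was raised and 3 were lowered against PBS, beside 23.7% and 20.9% of all genes, and 3 members had all libraries below PBS, beside 25.6%. Against IL-17A, all 8 members were lower after both cytokines in every library, a separation seen in 25.4% of genes; 17.7% of genes passed as lowered and 15.1% as raised. Nothing is read from these counts, since the comparisons chose the members.

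With IL-36γ alone, 4 of the 8 members rose against PBS, where 17.3% of all genes rose and 11.1% fell. These were Id1 (log2 fold change 0.72, SE 0.16, edgeR adjusted p 0.0066), Zfp36l1 (0.38, SE 0.07, 0.00305), Id3 (0.37, SE 0.11, 0.0273) and Zfp36l2 (0.31, SE 0.10, 0.0368). In each of them the 3 IL-36γ libraries lay above the 3 PBS libraries, a separation that 22.4% of all genes had. All 4 changes were under a doubling, which is the threshold of the study: 0 of the 8 members passed with a log2 fold change above 1 as well, beside 5.11% of genes. By unadjusted p below 0.05, 4 members were higher, beside 23.1% of all genes, and DESeq2 called 4 members raised, beside 19.8%.

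The calls of Id1 and Zfp36l1 held in each of the 12 fits that left out 1 library, with adjusted p up to 0.0349 and 0.0212. That of Id3 was lost without PBS replicate 2 (adjusted p 0.0888), PBS replicate 3 (0.0735), IL-36γ replicate 1 (0.0922) or IL-36γ replicate 3 (0.0643). That of Zfp36l2 was lost without PBS replicate 2 (0.0567) or 3 (0.161), the IL-17A replicate 1 (0.0508) or 2 (0.0561), or IL-36γ replicate 1 (0.164) or 2 (0.0679). With scaling by library size only, which moved the median of all genes from -0.015 to -0.165, Id3 (0.22, adjusted p 0.181) and Zfp36l2 (0.16, adjusted p 0.203) did not pass either, and Id4 passed as lowered (-0.40, adjusted p 0.0354). Zfp36l2 also did not pass in a fit of the PBS and IL-36γ libraries alone (0.30, adjusted p 0.0636).

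The other 4 members did not pass after IL-36γ. The log2 fold change of Id2 was 0.13 with a 95% interval of -0.09 to 0.35 (adjusted p 0.346), and that of Id4 was -0.25 with an interval of -0.53 to 0.03 (adjusted p 0.167). For Smad6 it was -0.12, with an interval of -0.44 to 0.19 (adjusted p 0.536). For Smad7 it was -0.02, with an interval of -0.28 to 0.24 (adjusted p 0.916). A doubling in either direction lies outside each of these intervals, which do not show that the levels were alike.

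Adding IL-17A to IL-36γ gave lower values for all 8 members, yet none passed: 0 of 8 in edgeR, with adjusted p from 0.127 (Id3) to 0.395 (Id1 and Id2). In this comparison 0% of all genes passed as raised and 0.0206% as lowered. By unadjusted p below 0.05, 6 members were lower, beside 9.54% of all genes, and DESeq2 called 3 (Id3, Smad6 and Zfp36l1) as lowered, beside 2.65%. Id3 and Zfp36l1 were chosen for not being higher in these combination libraries, which favours lower values here, so nothing is read from these counts. The log2 fold changes ran from -0.48 (Smad6, 95% interval -0.80 to -0.15) and -0.44 (Id3, -0.68 to -0.20) to -0.23 (Zfp36l1, -0.39 to -0.07) and -0.19 (Id2, -0.41 to 0.03). The combination libraries were all below the IL-36γ libraries in 6 members, all but Id1 and Id2, and in 11.3% of genes.

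All 8 members were also lower after IL-36γ than after IL-17A, and again 0 of 8 passed in edgeR, with adjusted p from 0.056 (Zfp36l1) to 0.253 (Zfp36l2). Of all genes, 4.37% passed as raised and 3.61% as lowered. The unadjusted p was below 0.05 for 6 members, beside 12.7% of all genes that were lower by it, and DESeq2 called 3 (Id3, Smad6 and Zfp36l1) as lowered, beside 7.58%. Id3 and Zfp36l1 were chosen for being high in these IL-17A libraries, which favours lower values here, so nothing is read from these counts. The differences were small, from -0.39 for Smad6 (95% interval -0.71 to -0.08) and -0.38 for Id1 (-0.72 to -0.03) to -0.19 for Zfp36l2 (-0.41 to 0.02). In 5 members, Id1, Id2, Id3, Smad6 and Zfp36l1, the groups did not overlap, as in 16.1% of genes. Without PBS replicate 1, Zfp36l1 passed as lowered (adjusted p 0.0412).

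**Figure D2:**
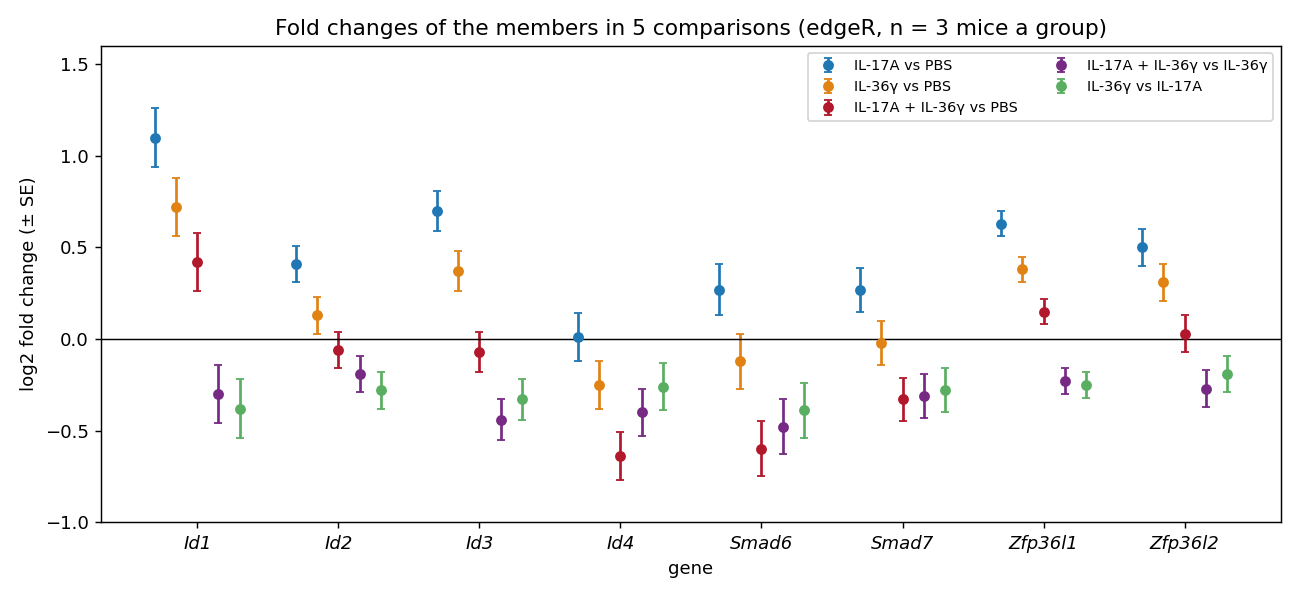
Log2 fold change ± SE of the fit (y axis) of each member (x axis) in 5 comparisons of 3 mice a group, shown by colour. Against PBS each member runs downward from IL-17A to IL-36γ to the combination, for Id3 from 0.70 over 0.37 to -0.07, and the values against IL-36γ or IL-17A all lie below 0.

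The order of the group means, IL-17A above IL-36γ above the combination, was shared by all 8 members and by 32.4% of all genes tested. The choice used the IL-17A and combination values, so nothing is read from this count. Neighbours in this order did not pass in edgeR in any member, as given above. The mean of PBS fell below that of the combination for Id1, Zfp36l1 and Zfp36l2 and just above it for Id2 and Id3. For Smad6, Smad7 and Id4 it fell between IL-36γ and IL-17A, so that the combination was the lowest group. The difference between the change by IL-17A with IL-36γ and without it (the interaction on the log2 scale) was -1.39 for Id1 (SE 0.22), -1.14 for Id3 (SE 0.16) and -0.85 for Zfp36l1 (SE 0.10). It was -0.78 for Zfp36l2 (SE 0.14), -0.75 for Smad6 (SE 0.21), -0.60 for Id2 (SE 0.14), -0.57 for Smad7 (SE 0.17) and -0.40 for Id4 (SE 0.18), with a median of -0.07 over all genes. The interaction passed in 0.551% of genes in either direction, and is a description for the members.

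Across the 12 libraries, Zfp36l1 and Zfp36l2 had a Pearson correlation of 0.916 in log2 CPM, and Id3 correlated with both at 0.866. The correlation of Zfp36l1 with Id4 was 0.223 and with Smad6 0.494. The genes nearest to Id3 were Rnd3 (0.943), Tm2d1 (0.936), Dnase1l3 (0.932), which encodes a secreted DNase, B230219D22Rik (0.924) and Glud1 (0.916), which encodes glutamate dehydrogenase. Nearest to Zfp36l1 were Usp9x (0.934), which encodes a deubiquitinase, Maml1 (0.930), a co-activator of Notch, Myct1 (0.929), Ythdf1 (0.924), which binds methylated mRNA, and Ptp4a2 (0.917), a phosphatase. Zfp36l2 came in the seventh place for Zfp36l1. These points share 4 group means and their libraries, so the values describe a shared order of groups.

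**Figure D3:**
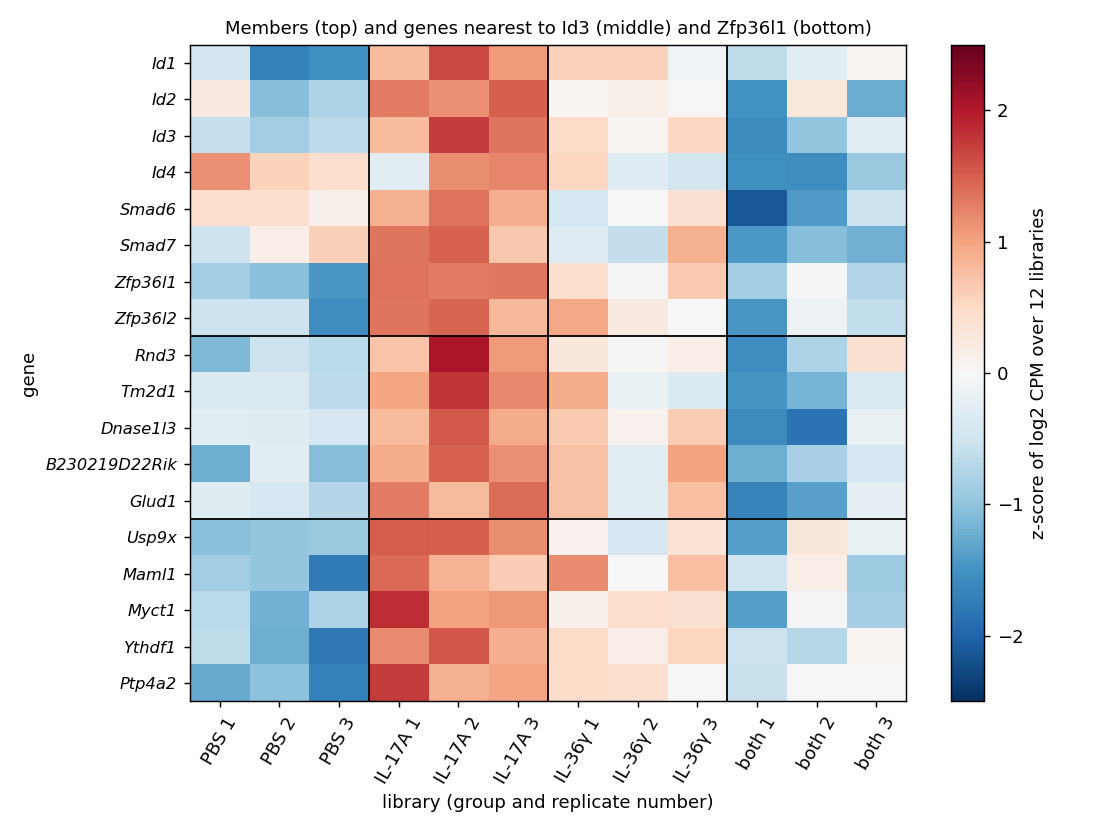
Log2 CPM of the 8 members and of the 5 genes nearest to Id3 and to Zfp36l1 (rows), as z-scores over the 12 libraries (columns, labelled by group and replicate, both meaning IL-17A + IL-36γ). The 3 IL-17A columns are the highest for 5 members, with Id4, Smad7 and Zfp36l2 as the exceptions, and Id3 with Rnd3 (correlation 0.943) is lowest in combination replicate 1.

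Around the members, 180 other genes of 9 lists were tested. IL-17A alone raised 27 and lowered 0 in edgeR (6 lowered by unadjusted p, 2 by DESeq2), IL-36γ raised 36 and lowered 21, and both raised 38 and lowered 54. The share raised was 15% after IL-17A, where it was 7.44% of all genes, 20% after IL-36γ (17.3% of all genes) and 21.1% after both (23.7%). The share lowered was 11.7% after IL-36γ (11.1% of all genes) and 30% after both (20.9%). The median log2 fold change over these genes was 0.15, 0.01 and -0.10, beside 0.042, -0.015 and -0.025 over all genes. The counts for IL-17A rested on the PBS libraries: 1 list gene passed without PBS replicate 3 and 38 without PBS replicate 1. For IL-36γ, 35 to 61 list genes passed when 1 library was left out, and for both 69 to 94.

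Most ligand genes that passed after both cytokines fell. Of 19 ligand genes tested, 1 rose and 0 fell after IL-17A (2 by unadjusted p, 0 by DESeq2), 1 rose and 5 fell after IL-36γ, and 1 rose and 10 fell after both. The riser was Tgfb1, which encodes the main TGF-β, with log2 fold changes of 0.77 (SE 0.15), 0.92 (SE 0.14) and 1.02 (SE 0.14). Gdf5, a BMP family ligand of cartilage and joints, fell by 1.03 (SE 0.22) after IL-36γ and by 2.01 (SE 0.24) after both, and Tgfb2 fell by 0.60 (SE 0.20) after IL-36γ. Mstn, the muscle ligand myostatin, fell by 2.24 (SE 0.53) after both, where muscle marker sums were 265 to 1360 CPM. The cartilage marker sum moved alongside, at 292 to 396 CPM in PBS, 207 to 275 after IL-36γ and 141 to 184 after both, and its part in these values was not tested. The count for IL-36γ was 2 without PBS replicate 2 and 7 without PBS replicate 1, counting both directions.

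Among 17 receptor genes, 2 rose after IL-17A, 1 rose after IL-36γ, and 1 rose and 6 fell after both. Eng, the endothelial co-receptor endoglin, rose after each of the 3 treatments, by 0.58 (SE 0.10), 0.58 (SE 0.10) and 0.56 (SE 0.10) on the log2 scale. Tgfbr2 rose by 0.31 (SE 0.07) after IL-17A. Acvr1c, a receptor found in fat, fell by 1.85 (SE 0.44) after both, where adipocyte marker sums were 107 to 177 CPM against 241 to 309 CPM in PBS. Of 15 Smads, Smad ubiquitin ligases and co-repressors, IL-36γ raised 1 and lowered 3, and both raised 2 and lowered 5. Smad1, a receptor Smad of the BMP branch, rose by 0.30 (SE 0.06) after IL-36γ and by 0.21 (SE 0.06) after both. Smad3, of the TGF-β branch, fell by 0.34 (SE 0.08) and 0.53 (SE 0.08), and Smad9 fell by 0.99 (SE 0.20) after both. The receptor count after IL-17A was 0 without PBS replicate 3, and that of the Smad list after IL-36γ was 2 without IL-36γ replicate 2.

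Of 22 extracellular or membrane antagonists, 4 rose after IL-17A, 6 fell after IL-36γ, and 10 fell after both. Nog, which encodes noggin, fell by 0.91 (SE 0.21) after IL-36γ and by 1.40 (SE 0.22) after both. Bambi, a decoy receptor, was lower by 0.83 on the log2 scale after IL-36γ than after IL-17A (SE 0.12, edgeR adjusted p 0.004). The count after IL-17A was 0 if PBS replicate 3 was left out and 6 if IL-17A replicate 3 was.

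Of 21 other target genes of BMP or TGF-β, 4 rose after IL-17A, 3 rose and 2 fell after IL-36γ, and 4 rose and 8 fell after both. Ccn1, a matrix protein gene that is also induced by other signals, rose by 1.24 (SE 0.35) after IL-17A. Msx1, a homeobox gene and BMP target, fell by 0.44 (SE 0.13) after IL-36γ and by 1.05 (SE 0.13) after both, and Postn, a matrix protein of fibroblasts, fell by 0.38 (SE 0.09) and 0.74 (SE 0.09). Atoh8, another BMP target, was lower by 0.58 (SE 0.15) after IL-36γ than after IL-17A. Fibroblast marker sums were 6960 to 9010 CPM in PBS, 5450 to 6150 after IL-36γ and 5170 to 6390 after both. The count after IL-17A was 0 without PBS replicate 2, that after IL-36γ was 2 without IL-36γ replicate 1, and that after both was 6 without combination replicate 1.

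Among 18 bHLH genes, whose proteins are partners or opponents of the Id proteins, 1 rose after IL-17A, 2 rose and 1 fell after IL-36γ, and 2 rose and 9 fell after both. Lyl1, of blood and endothelial cells, rose by 0.38 (SE 0.10), 0.92 (SE 0.10) and 0.83 (SE 0.10) after the 3 treatments. The largest rise was that of Tcf23, by 3.61 (SE 0.86) after IL-36γ and by 4.87 (SE 0.83) after both. Its level was very low, at 0.0303 to 0.311 CPM in PBS and 4.86 to 7.34 CPM after both. Myog, the muscle factor myogenin, fell by 0.94 (SE 0.30) after IL-36γ and by 1.07 (SE 0.30) after both. The muscle markers beside it were 441 to 3490 CPM in PBS and 265 to 1360 CPM after both, and their part was not tested. The count after both was 5 without combination replicate 1 and 13 without PBS replicate 1, and that after IL-36γ was 5 without PBS replicate 1.

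Of 24 further genes of AU-rich element binding and mRNA decay, 3 rose after IL-17A, 8 rose and 1 fell after IL-36γ, and 9 rose and 3 fell after both. Zc3h12a, which encodes the RNase regnase-1, rose by 1.53 (SE 0.15), 1.39 (SE 0.15) and 1.88 (SE 0.15), and Zfp36, the founding family member tristetraprolin, rose by 0.87 (SE 0.17) after IL-17A. The Zfp36 level was 25.7 to 29.3 CPM in PBS and 35.9 to 62.7 CPM after IL-17A. It was also above PBS after IL-36γ (60.5 to 68.2 CPM) and after both (42.6 to 59.5 CPM). Zc3h12d, a relative of Zc3h12a found in lymphocytes, rose by 1.35 (SE 0.18) after IL-36γ and by 1.27 (SE 0.18) after both. Of 22 mRNAs known to be bound by this family, 6 rose after IL-17A, 9 rose and 2 fell after IL-36γ, and 12 rose and 2 fell after both. The neutrophil chemokine gene Cxcl1 rose by 2.56 (SE 0.47), 4.06 (SE 0.46) and 3.98 (SE 0.46), and the cytokine gene Il6 by 1.91 (SE 0.55), 2.96 (SE 0.51) and 3.75 (SE 0.50). Bcl2, of cell survival, fell by 0.47 (SE 0.11) after IL-36γ and by 0.67 (SE 0.11) after both. After IL-17A the counts were 1 and 0 without PBS replicate 3, and after IL-36γ they were 5 and 7 without it.

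**Figure D4:**
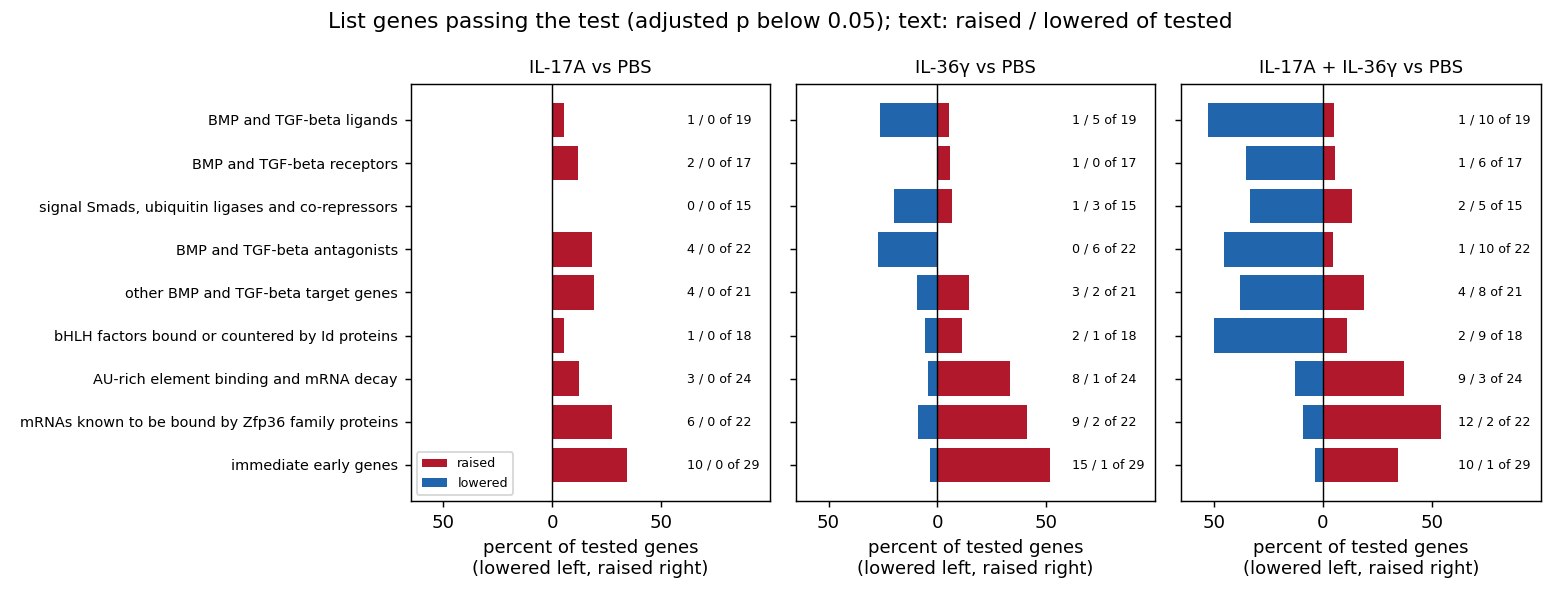
Percent of the tested genes of each list that passed as raised (right of 0) or lowered (left) in edgeR, against PBS, for the 3 treatments; the text in each row gives raised / lowered of tested. For ligands the lowered count runs from 0 over 5 to 10 of 19, and for mRNAs bound by the Zfp36 family the raised count runs from 6 over 9 to 12 of 22.

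Id1, Id3, Zfp36l1 and Zfp36l2 are themselves quickly induced by many stimuli, so 29 immediate early genes were set beside them. Of these, 10 rose after IL-17A, 15 rose and 1 fell after IL-36γ, and 10 rose and 1 fell after both. Fos, a subunit of AP-1, rose by 2.83 (SE 0.53), 2.63 (SE 0.53) and 1.80 (SE 0.52), and Egr1, a zinc finger factor of the immediate response, rose by 1.66 (SE 0.24) after IL-17A and was lower by 1.16 (SE 0.23) after both than after IL-17A. The summed level of the list was 1620 to 1720 CPM in PBS, 1950 to 2820 after IL-17A, 2260 to 2560 after IL-36γ and 1790 to 2230 after both. Its part in the values of the members was not tested. The count after IL-17A was 0 without PBS replicate 3. After IL-36γ it was 8 without IL-36γ replicate 1, and after both it was 5 without combination replicate 3.

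Cell type markers also moved with the groups. The summed level of 12 blood endothelium markers, of which Pecam1 and Cdh5 define the cell type, was 228 to 256 CPM in PBS, 255 to 294 after IL-17A, 224 to 250 after IL-36γ and 213 to 225 after both. That of 10 markers of pericytes and smooth muscle, Rgs5 and Acta2 among them, was 399 to 476, 452 to 481, 329 to 412 and 274 to 332 CPM in the same order. Keratinocyte markers summed to 16800 to 23300 CPM after PBS and 33700 to 39800 CPM after both, and neutrophil markers to 31 to 118 CPM and 7640 to 10100 CPM. Macrophage markers were 700 to 821 CPM after PBS and 1130 or more in every other library. T cell markers lay at 41.3 to 44.6 CPM in PBS and 42.4 to 51.7 CPM after IL-17A. They were above PBS at 49.4 to 52.4 CPM after IL-36γ and 45.9 to 50.6 CPM after both. The sum hides T cell markers that went opposite ways. Of 11 tested in edgeR, 5 passed as raised and 1 as lowered after IL-36γ, beside 17.3% and 11.1% of all genes. After both, 7 passed as raised and 2 as lowered, beside 23.7% and 20.9%. Schwann cell markers lay at 360 to 456 CPM after PBS and 207 to 279 CPM after both. The defining neutrophil marker Ly6g was at 0 to 22 counts per library. All 10 neutrophil markers, Ly6g included, passed as raised after both in edgeR, beside 23.7% of all genes. The part of these cell types in the values of the members was not tested.

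**Figure D5:**
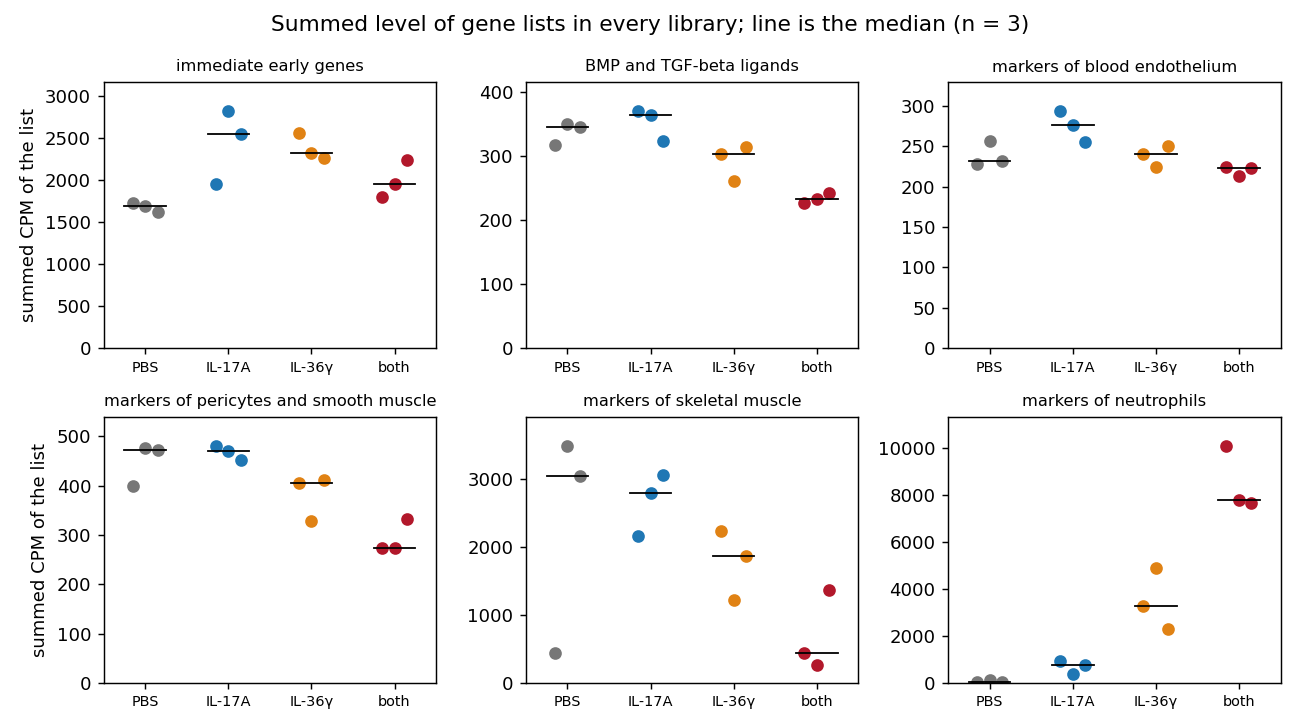
Summed CPM (y axes, linear and from 0) of 6 gene lists in every library by group (x axes), with dots for mice and a line at the median of 3. By median, endothelium markers are highest after IL-17A, at 255 to 294 CPM, a range that overlaps PBS at 228 to 256 CPM. Ligands, pericyte and muscle markers have their lowest median after both, where the pericyte and muscle ranges overlap those of other groups. PBS replicate 1 is low for muscle at 441 CPM.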

How the data were processed

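RNA-Seq libraries of 12 mouse ears (stranded total RNA after ribosomal depletion, 76 cycles from each end) were analysed. The authors aligned reads to mm10 with STAR 2.5.2b and used featureCounts of Subread 1.5.1 to count reads per Ensembl gene, and the deposited table holds these raw counts, without normalization. The strand setting and annotation release of the counting are not given in the sources used here, so reads of Id4, Zfp36l1 and Zfp36l2 could include some from genes on the other strand. The authors' comparison tables (DESeq2 1.30.0 fold changes and p-values) were used for gene symbols only.

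Libraries were grouped by sample titles. In R 4.3.3, genes were filtered with filterByExpr (minimum count 10), scaled by TMM and tested in 1 quasi-likelihood fit of the 4 groups in edgeR 4.0.16 (limma 3.58.1), with Benjamini-Hochberg adjustment over 19408 genes. The unit CPM was computed from the deposited counts with these scaling factors. DESeq2 1.42.0 was an alternative, as were other scalings, filters, the replicate number as a block, 2-group fits and leaving out each library. On simulated data for IL-36γ against PBS (19094 genes), 83 of 100 genes changed by a log2 value of 1 and 100 of 100 changed by 2 were called, with 8 unchanged genes. The simulation gave every gene the same spread, unlike the data. Changes under a log2 value of 1, such as those of the members after IL-36γ, were not simulated. The common biological coefficient of variation was 14.2%. No libraries of a group were copies (chi-square per gene 7.09 to 64). The study's methods give 1 mouse per library, and p-values measure the spread between these 3 mice a group. Intervals cover 95%.

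The members, lists and comparisons were chosen with earlier results of these data known. The genes named are the members, the 5 genes best correlated with Id3 and with Zfp36l1, up to 2 genes a direction with the largest change per list and comparison among those that passed, and the first markers of each cell type. Ly6g was named after its counts were seen. A gene of the antagonist list is not reported here. Exon lengths, positions and overlaps come from GENCODE vM21 (GRCm38), promoter windows from RefSeq (GRCm38.p6).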

Additional observations from a re-analysis of the deposited data

Results flagged for a closer look

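Among the 180 tested genes around the members, the change by IL-17A differed with and without IL-36γ in 7 genes by the interaction term (edgeR, adjusted over all genes). The log2 values, IL-17A with IL-36γ minus IL-17A without it, were -2.07 for Dusp1 (adjusted p 0.0242), -1.97 for Egr1 (0.0429), -3.67 for Fos (0.0498), -1.15 for Ier2 (0.0412), -1.26 for Junb (0.0437), -1.30 for Klf2 (0.0429) and -0.58 for Tgfbr2 (0.0445). The first 6 are immediate early genes, and Tgfbr2 encodes the type II TGF-β receptor. All 7 values were negative, as were 82 of the 107 genes that passed among all genes, where the median was -0.07. The count was 0 when libraries were scaled by size only, and also without PBS replicate 2 or 3, IL-17A replicate 2, IL-36γ replicate 1 or 3, or combination replicate 1 or 2; it was 1 without IL-17A replicate 3, 11 without IL-36γ replicate 2 and 32 without PBS replicate 1.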

How the results depend on the processing

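Of the members' values, Id2 after IL-36γ turned to -0.015 with scaling by library size only, and Smad7 after IL-36γ turned to 0.045 without PBS replicate 3 and 0.054 without IL-36γ replicate 2, and was -0.135 without IL-36γ replicate 3. A log2 fold change above 1 as well left 0 members after IL-36γ, and 407, 1377, 2603, 2, 1737 and 313 genes in all (IL-17A, IL-36γ and both against PBS; both against IL-36γ; both against IL-17A; IL-36γ against IL-17A), with 12, 14, 24, 19 and 2 list genes (the fourth comparison apart). DESeq2 called 4005 genes for IL-17A against PBS, 705 for both against IL-36γ and 3087 for IL-36γ against IL-17A, with 43, 15 and 38 list genes, 3 members in each of the last 2, and 44 list genes in the interaction. Fits of only the 2 groups gave 20 genes and 1 list gene for IL-17A against PBS, 0 genes for both against IL-36γ and 1 member for IL-36γ against IL-17A. For both against IL-36γ, library size only and at least 10 counts in every library gave 0 genes, and no filter gave 281 genes, 1 member and 7 list genes; at least 10 counts gave 1 member for IL-36γ against IL-17A. The interaction held 4 list genes with DESeq2-type size factors, 0 with library size only and 15 without a filter. Leaving out 1 library gave 21 to 4571, 2987 to 7332, 6412 to 9716, 0 to 209, 4114 to 7245 and 201 to 2394 genes in the 6 comparisons; 2 to 4, 0 and 0 to 1 members for IL-36γ against PBS, both against IL-36γ and IL-36γ against IL-17A; 1 to 38, 35 to 61, 69 to 94, 0 to 6, 57 to 90 and 4 to 26 list genes, and 0 to 32 in the interaction. The main fit did not treat replicate numbers as pairs. Same-numbered libraries had deviations correlated at -0.199 to 0.352, over 0.1 in 9 of 18 pairs. Libraries of different numbers were not compared in this way, so whether the numbers pair libraries was not tested. With the replicate block, 3360 genes passed for IL-17A against PBS, 0 for both against IL-36γ, and 22 list genes in the interaction. The cause of these shifts was not tested. Fewer genes or libraries enter the strict filter, the 2-group fits and the fits without a library. The lowest count of a member was 90 (Smad6, combination replicate 1).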
